A study of Mus musculus with 21 samples.

Results

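The 10 receptors examined here are G protein-coupled receptors of pancreatic islet cells that raise or lower insulin release: Glp1r, Gipr, Gcgr, Gpr119, Ffar1, Chrm3, Mc5r, Cnr1, Adra2a and Npy1r. They were picked by name, with earlier results of these data in view, out of 55536 genes counted, and all 10 passed the filter of at least 10 counts summed over the libraries that left 27229 genes. Islets came from male mice of the CBA strain fed regular diet (RD), a diet high in fat (HFD) or the latter with the AMPK activator O304 mixed in at 0.8 mg per g of diet (HFD-O304). Diets began at 10 weeks of age and islets were taken at 20 weeks according to the results text, while the methods give 9 weeks of diet. The labels give no genetic change in any group. Each group had 7 libraries, and each library was made from 150 islets picked from a pool of islets of 5 mice, so that values are averages over all cell types of the islet and over animals. RD islets were the control for diet, and HFD islets were the control for O304, since the diets differed by O304.

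Insulin release from beta cells is set by glucose and tuned by receptors that act through G proteins. Receptors coupled to Gs raise cAMP and those coupled to Gq release calcium from intracellular stores, and both kinds amplify secretion, while receptors coupled to Gi/o lower cAMP and restrain it. The incretin hormones of the gut act on the islet through the first of these routes.

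Read pairs on genes ranged from 13809266 to 48922569 per library, with the shallowest in HFD-O304 replicate 2. By distance to the group means over 13216 genes, 18 of 21 libraries lay nearest to their own group, while RD replicate 1 lay nearest to HFD-O304, RD replicate 2 to HFD and HFD replicate 7 to RD. HFD-O304 replicate 1 is tagged HFD in its diet label and was placed by its title. Over the 13216 genes it lay at a distance of 42.4 from the mean of the other HFD-O304 libraries, 48.8 from RD and 60.5 from HFD. Its Cnr1 value of 137 normalized counts and its Mc5r value of 15.2 both lay inside the range of the other HFD-O304 libraries and outside that of the HFD libraries. These receptors were picked with such results known, so their values are no separate check of the title. Library numbers run first through replicates 1 to 4 of all groups and then through replicates 5 to 7. The library sets used below were inferred from this numbering.

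The start regions of 8 of the 10 receptors, all but Mc5r and Gipr, were taken from the RefSeq promoter table (GRCm38.p6). Printed are those of the 4 among these that were higher in HFD-O304 than in HFD islets, from 7.08-fold for Cnr1 to 1.22-fold for Ffar1. Each is written 5′ to 3′ on the gene's strand and covers bases before the first annotated exon only. Capitals mark GGGCGG or its reverse complement CCGCCC, the GC box.
Cnr1, chr4:33924014-33924263, plus strand: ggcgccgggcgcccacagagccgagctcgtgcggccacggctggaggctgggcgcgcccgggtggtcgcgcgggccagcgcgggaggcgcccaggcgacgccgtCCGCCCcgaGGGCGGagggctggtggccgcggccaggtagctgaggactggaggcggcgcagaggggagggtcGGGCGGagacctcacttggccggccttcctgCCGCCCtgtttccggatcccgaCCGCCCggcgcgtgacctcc
Gpr119, chrX:48674479-48674728, minus strand: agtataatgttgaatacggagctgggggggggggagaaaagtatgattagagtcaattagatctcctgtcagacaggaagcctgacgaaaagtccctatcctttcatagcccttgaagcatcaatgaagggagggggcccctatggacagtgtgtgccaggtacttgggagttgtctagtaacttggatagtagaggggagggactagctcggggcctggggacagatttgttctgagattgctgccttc
Glp1r, chr17:30901617-30901816, plus strand: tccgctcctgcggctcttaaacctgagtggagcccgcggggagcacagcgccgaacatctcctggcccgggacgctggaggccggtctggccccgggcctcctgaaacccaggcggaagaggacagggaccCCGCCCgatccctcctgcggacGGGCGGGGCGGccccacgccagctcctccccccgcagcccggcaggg
Ffar1, chr7:30861565-30861720, minus strand: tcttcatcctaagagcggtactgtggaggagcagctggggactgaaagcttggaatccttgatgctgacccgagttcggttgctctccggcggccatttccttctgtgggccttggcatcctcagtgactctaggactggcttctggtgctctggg
The Cnr1 stretch, the most upstream of 3 RefSeq starts for the gene, holds 5 GC boxes, and the Glp1r stretch holds 3, of which the last pair share a base. No GC box stands in the Gpr119 and Ffar1 stretches. Over the 250 bases before the start, 4 of 8 receptors held at least 1 GC box, against 33.0% of 27025 promoters. None of the 8 held TGACGTCA, the site of cAMP response element binding protein, which 1.60% of promoters held, and none held CCAAT, which 34.5% held. CACGTG (the E-box) and TATAAA (the TATA box) were each found in 1 receptor, Adra2a, against 6.04% and 12.98% of promoters. All 250 bases searched for Adra2a lie in its own annotated exons, as do 230 of those for Npy1r. Both strands were searched. A match is a run of letters only, and its use was not tested.

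In the GRCm38 annotation the peptide hormone receptors Glp1r (chr17:30901817-30940791, ENSMUSG00000024027), Gipr (chr7:19156061-19166127, ENSMUSG00000030406) and Gcgr (chr11:120530699-120538986, ENSMUSG00000025127) each have 13 coding exons. Cnr1 (chr4:33924593-33948831, ENSMUSG00000044288), Ffar1 (chr7:30857390-30861564, ENSMUSG00000044453), Gpr119 (chrX:48667979-48674478, ENSMUSG00000051209), Adra2a (chr19:54044151-54048982, ENSMUSG00000033717) and Chrm3 (chr13:9875486-10360847, ENSMUSG00000046159) are each read from 1 coding exon. Npy1r (chr8:66697192-66706792, ENSMUSG00000036437) has 2. No receptor shares exon bases with another gene on its strand.

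Levels were first compared between receptors within RD islets, as counts per exon length scaled to the same total in every library (TPM). Glp1r, the receptor of the incretin GLP-1, was the most abundant at 269 ± 24.1 TPM (SD, n = 7), above 99.5% of the genes tested. Ffar1, the receptor of long-chain fatty acids, followed at 88.9 ± 6.12 TPM, and then Adra2a, the adrenergic receptor through which adrenaline holds back insulin release, at 58.9 ± 9.74 TPM. Gipr, the receptor of the incretin GIP, stood at 34.3 ± 7.42 TPM. These first 4 stood in an order in which neighbouring receptors did not overlap in any RD library. Gcgr, the glucagon receptor, had 22.4 ± 2.72 TPM and overlapped Gipr. Chrm3, the muscarinic acetylcholine receptor of the islet, had 13.5 ± 0.691 TPM and Gpr119, a receptor of lipid amides, had 12.3 ± 2.21 TPM, and their libraries overlapped each other. The lowest 3 were Mc5r, a melanocortin receptor, at 1.39 ± 0.902 TPM, Npy1r, the Y1 receptor of neuropeptide Y, at 0.557 ± 0.103 TPM, and Cnr1, the cannabinoid receptor CB1, at 0.467 ± 0.181 TPM. Mc5r and Npy1r overlapped in RD libraries, as did Npy1r and Cnr1, and Cnr1 lay above 37.2% of the genes tested.

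**Figure D1:**
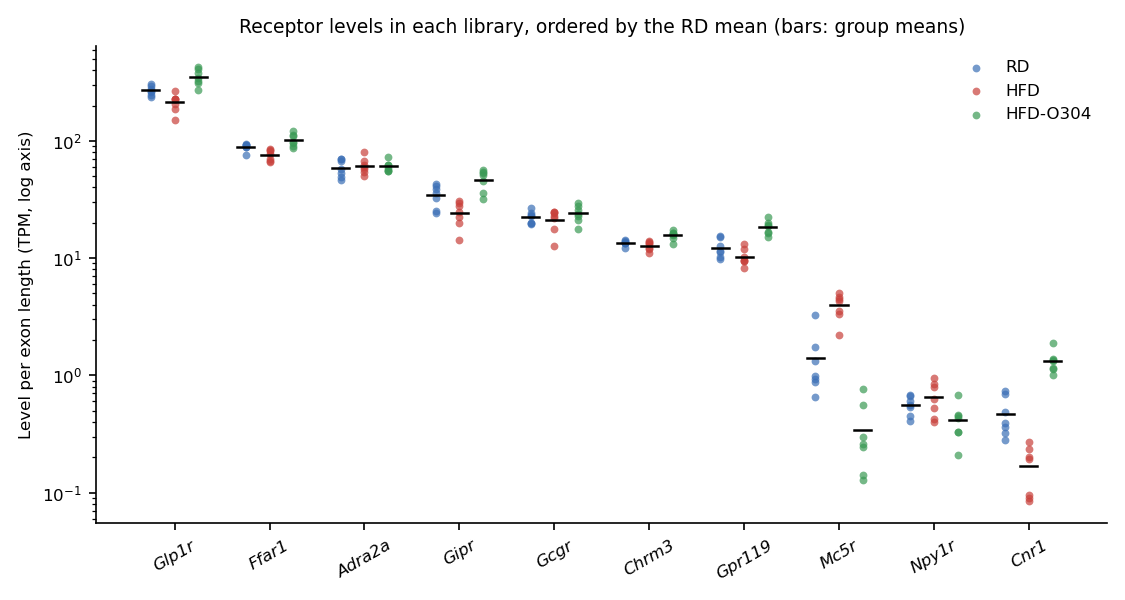
Level of each receptor in TPM per exon length (log axis) in each of the 21 libraries, coloured by group, with group means as bars and receptors ordered by their RD mean. Glp1r lies between 152 and 424 TPM in all libraries, while Mc5r and Cnr1 exchange places at the low end between HFD and HFD-O304 islets.

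By group means the 10 receptors stood in the same order in HFD as in RD islets, and the order differed in HFD-O304 islets. In HFD islets Mc5r was the eighth at 3.94 ± 0.982 TPM, above every Npy1r value, and Cnr1 the last at 0.167 ± 0.0759 TPM. In HFD-O304 islets these places were exchanged, with Cnr1 the eighth at 1.32 ± 0.282 TPM and Mc5r the last at 0.340 ± 0.232 TPM, though its libraries overlapped those of Npy1r. Gpr119 at 18.4 ± 2.48 TPM stood before Chrm3 at 15.7 ± 1.27 TPM in HFD-O304 islets only by means, since their libraries overlapped. Summed over the 10 receptors, the level was 502 ± 31.9 TPM in RD, 423 ± 57.0 under HFD and 621 ± 75.8 in HFD-O304 islets. TPM values are shares of a fixed total, and their gaps between groups can differ from those of normalized counts. Adra2a was at 58.9 TPM in RD and 60.5 in HFD-O304 islets, but at 4821 and 4739 normalized counts. Glp1r made up 53.6% ± 2.62, 50.1% ± 2.40 and 56.5% ± 2.59 of this sum, and Adra2a 11.8% ± 2.09, 14.7% ± 2.18 and 9.87% ± 1.60, in the same order.

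The differences between groups were then read from a single edgeR fit over all genes, with a receptor taken as changed at a Benjamini-Hochberg adjusted p under 0.01. In HFD vs RD islets 2 of 10 receptors passed, Mc5r higher and Cnr1 lower, where 3.54% of all genes passed, 2% higher and 1.54% lower. In HFD-O304 vs RD islets 3 of 10 passed, Cnr1 and Gpr119 higher and Mc5r lower, where 1.31% of genes passed, 0.404% higher and 0.903% lower. In HFD-O304 vs HFD islets 6 of 10 passed, with Cnr1, Gipr, Gpr119, Glp1r and Ffar1 higher and Mc5r lower, where 11.9% of genes passed, 5.08% higher and 6.79% lower. Without RD replicates 1 and 2 and HFD replicate 7, 2, 3 and 7 receptors passed in these comparisons, where 5.62%, 1.14% and 13.6% of all genes did. Without HFD-O304 replicates 1 and 2 it was again 2, 3 and 7 receptors, and 3.38%, 0.687% and 9.39% of all genes. These counts describe receptors that were chosen with such results known. The shares of all genes include sparse genes, kept at 10 summed counts. With a filter of a mean of at least 50 counts, 1059, 421 and 3213 genes passed out of fewer genes tested. The shares among such genes were thus larger. The comparisons share libraries pairwise and are not independent of each other.

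**Figure D2:**
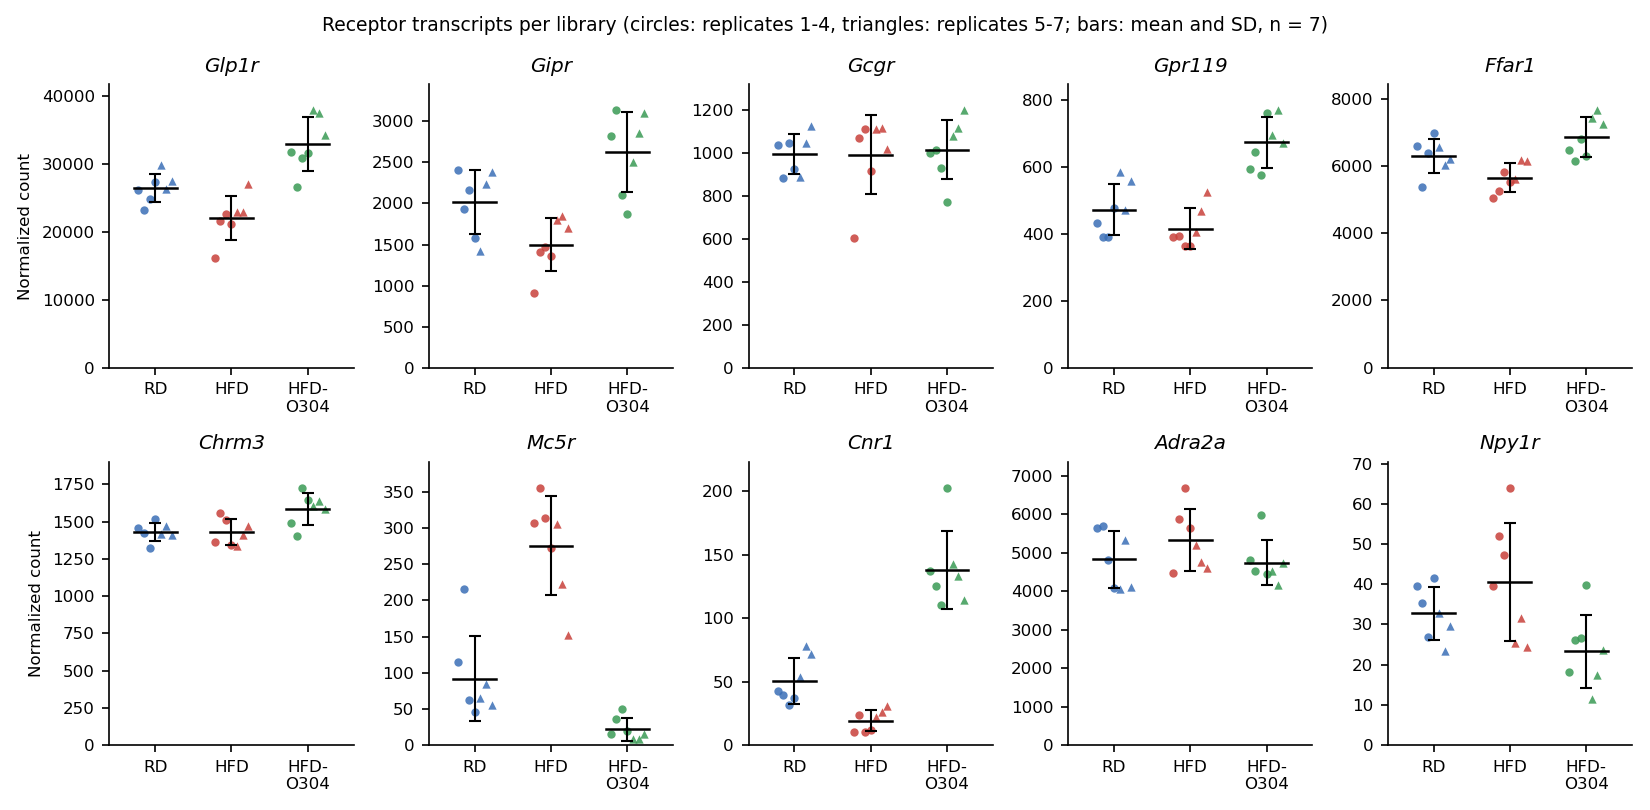
Normalized counts of each receptor in the 7 RD, 7 HFD and 7 HFD-O304 libraries on linear axes from 0, with circles for replicates 1 to 4, triangles for replicates 5 to 7, and the mean with SD. Cnr1 lies at 31.4 to 78.3 in RD, 9.92 to 30.4 under HFD and 110 to 203 in HFD-O304 islets, whereas Gcgr and Chrm3 show groups that overlap.

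The islets differed in more than the receptors. The summed level of 7 alpha cell markers was 24909 CPM (counts scaled to a common library total, range 22085 to 29298) in RD, 13683 (10630 to 18126) in HFD and 29122 (25219 to 32913) in HFD-O304 islets. That of 4 delta cell markers was 2885 (2327 to 3839), 1772 (1284 to 2845) and 3483 (2463 to 4606). That of 10 beta cell markers was 309449 (293197 to 322840), 327371 (301964 to 343167) and 294124 (277010 to 310650), of which 1 rose and 2 fell in HFD vs RD and 3 rose and 3 fell in HFD-O304 vs HFD. No marker of these lists was at 0 in all libraries. The sums mostly follow hormone genes. In RD islets Gcg had 851484 normalized counts, and the next alpha cell marker, Ttr, had 45055. Sst had 100703, and the next delta cell marker, Rbp4, had 3546. Ins2, Ins1 and Iapp lead the beta cell list. In HFD vs RD islets 2 alpha cell markers, Ttr and Gc, rose and 4 of 7 fell, and 3 of 4 delta cell markers fell. In HFD-O304 vs HFD islets 5 of 7 alpha cell and 4 of 4 delta cell markers rose, and 2 alpha cell markers fell. Of all genes 3.54% passed in the former and 11.9% in the latter. The alpha and delta sums, and that of 2 PP cell markers at 4318, 3480 and 4989 CPM, stood lowest in HFD islets, as did the mean levels of Cnr1, Gipr, Glp1r, Gpr119 and Ffar1, and the part of these cells in the receptor values was not tested. In bulk islets, fewer cells of a type and less RNA per cell cannot be told apart. Mesenchymal markers, 7 in number, summed to 73.6 (58.9 to 94.4), 118.05 (61.9 to 170) and 57.8 (38.8 to 100) CPM, and 1 rose in HFD vs RD while 4 of 7 fell between HFD and HFD-O304 islets. Duct cell markers summed to 236, 296 and 276 CPM in RD, HFD and HFD-O304 islets and endothelial markers to 621, 625 and 568. Mc5r, like the mesenchymal, beta, duct and endothelial sums, was highest in HFD islets, and their part in its values was not tested. The duct sum mostly follows Krt7 and Spp1. By edgeR, 0 of 6 duct markers passed in HFD vs RD, and 3 rose and 0 fell in HFD-O304 vs HFD islets. These 3, Krt19, Sox9 and Cftr, had their lowest means in HFD islets. The endothelial sums of RD and HFD libraries overlapped. Among 7 endothelial markers, 0 passed in HFD vs RD, and 0 rose and 2 fell in HFD-O304 vs HFD islets. As group means, macrophage markers summed to 18.2 to 21.9 and Schwann cell and neuron markers to 93.0 to 118.2. Acinar cell markers ranged from 20.7 to 8601 CPM between libraries, and 0 of 9 passed in any comparison by edgeR or at an unadjusted p under 0.05.

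Of the 5 receptors coupled to Gs, Gipr, Glp1r and Gpr119 were higher in HFD-O304 than in HFD islets, by 1.75-, 1.498- and 1.62-fold, Mc5r was 13.1-fold lower and Gcgr did not pass the test. Glp1r ran from 23304 to 29855 normalized counts (median 26392) in RD libraries, from 16200 to 27022 (median 22650) in HFD and from 26696 to 37934 (median 31719) in HFD-O304. The HFD and HFD-O304 ranges met only through HFD replicate 7 and HFD-O304 replicate 2. The log2 fold change in HFD-O304 vs HFD islets was 0.58 (standard error 0.09, edgeR, adjusted p = 1.62e-05). Against RD, HFD islets were at -0.27 (1.96 standard errors reaching from -0.44 to -0.10, edgeR, adjusted p = 0.0564) and HFD-O304 islets at 0.32 (0.15 to 0.49, edgeR, adjusted p = 0.0435), and neither passed. With library set as a covariate both did, at adjusted p of 0.00781 and 0.00607 by edgeR.

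Gipr, the receptor of the incretin GIP, was at 1426 to 2407 normalized counts (median 2165) in RD, 908 to 1843 (median 1473) in HFD and 1873 to 3135 (median 2823) in HFD-O304 libraries. All HFD-O304 libraries were above all HFD libraries, and the RD libraries overlapped both. The log2 fold change in HFD-O304 vs HFD islets was 0.81 (standard error 0.14, edgeR, adjusted p = 0.000103). HFD islets stood at -0.43 against RD (-0.70 to -0.16, edgeR, adjusted p = 0.0549), a difference of -0.65 within replicates 1 to 4 and -0.18 within replicates 5 to 7. HFD-O304 islets stood at 0.38 against RD (0.11 to 0.65, edgeR, adjusted p = 0.164).

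Gpr119 was at 389 to 584 normalized counts (median 473) in RD, 363 to 527 (median 393) in HFD and 577 to 770 (median 673) in HFD-O304 libraries. HFD-O304 libraries stood above all HFD libraries, and above all RD libraries but for an overlap between 577 and 584. Of Glp1r, Gipr, Gcgr and Gpr119 it alone passed against RD as well, at a log2 fold change of 0.51 (standard error 0.10, edgeR, adjusted p = 0.00253), and it was at 0.70 (standard error 0.10, edgeR, adjusted p = 8.26e-06) against HFD. Within replicates 5 to 7 alone, the difference from RD was 0.41 and did not pass (edgeR, adjusted p = 0.0426). HFD vs RD islets gave -0.19 (-0.38 to 0.01).

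Gcgr, through which glucagon from alpha cells acts on beta cells, was at 886 to 1125 normalized counts in RD, 606 to 1118 under HFD and 771 to 1199 in HFD-O304 libraries. The groups overlapped throughout, and the log2 fold changes were -0.0014 (-0.21 to 0.21), 0.03 (-0.18 to 0.24) and 0.04 (-0.17 to 0.24) in HFD vs RD, HFD-O304 vs RD and HFD-O304 vs HFD islets. Its ligand gene Gcg, by contrast, fell by 1.01 on the log2 scale in HFD vs RD islets (standard error 0.12, edgeR, adjusted p = 7.27e-06).

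Of the receptors coupled to Gq, Ffar1 rose in HFD-O304 vs HFD islets and Chrm3 did not pass in any comparison. Ffar1 was at 5372 to 6968 normalized counts (median 6392) in RD, 5054 to 6165 (median 5601) in HFD and 6131 to 7653 (median 6809) in HFD-O304 libraries. Its HFD and HFD-O304 libraries overlapped between 6131 and 6165, and the log2 fold change was 0.28 (standard error 0.07, edgeR, adjusted p = 0.00217). It did not pass within replicates 1 to 4 alone, at 0.24 (edgeR, adjusted p = 0.0772), and was 0.33 within replicates 5 to 7 (edgeR, adjusted p = 0.00259). Against RD, HFD islets were at -0.16 (-0.29 to -0.03, edgeR, adjusted p = 0.138) and HFD-O304 islets at 0.12 (-0.0046 to 0.25, edgeR, adjusted p = 0.405).

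Chrm3, which carries the signal of the parasympathetic nerves to the beta cell, varied least of the 10, with coefficients of variation of 4.24%, 6.10% and 6.81% in RD, HFD and HFD-O304 libraries. It was at 1322 to 1514 normalized counts in RD, 1338 to 1558 under HFD and 1403 to 1728 in HFD-O304 libraries, so that all groups overlapped. The log2 fold changes were -0.01 (-0.11 to 0.10) in HFD vs RD, 0.15 (0.04 to 0.26, edgeR, adjusted p = 0.161) for HFD-O304 vs RD and 0.16 (0.05 to 0.26, edgeR, adjusted p = 0.0446) for HFD-O304 vs HFD islets.

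The largest differences of the 10 were those of Cnr1 and Mc5r, in opposite directions in every comparison. Cnr1 encodes a receptor coupled to Gi/o that responds to endocannabinoids, lipid messengers made on demand in the membrane. Its normalized counts were 31.4 to 78.3 (median 42.7) in RD, 9.92 to 30.4 (median 21.7) in HFD and 110 to 203 (median 133) in HFD-O304 libraries. No library of any group overlapped with another group. HFD islets were 2.58-fold below RD, a log2 fold change of -1.37 (standard error 0.25, edgeR, adjusted p = 0.000858). HFD-O304 islets were 2.74-fold above RD, at 1.45 (standard error 0.22, edgeR, adjusted p = 0.000136), and 7.08-fold above HFD, at 2.82 (standard error 0.24, edgeR, adjusted p = 4.20e-09). Cnr1 was the only receptor whose groups did not overlap against RD, both in HFD and in HFD-O304 islets, where this held for 1.35% and 1.56% of genes. Between HFD-O304 and HFD islets the groups did not overlap for Cnr1, Mc5r, Gipr and Gpr119, where this held for 6.17% of genes.

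These Cnr1 values rest on few reads, from 7 to 35 counts per HFD library, 34 to 74 per RD library and 48 to 230 per HFD-O304 library. In HFD libraries the coefficient of variation was 43.8%, against 22.7% from counting alone. The RD libraries fell apart by set, with 31.4 to 42.7 in replicates 1 to 4 and 53.7 to 78.3 in replicates 5 to 7. The difference of HFD-O304 from RD islets was 1.93 in the first set (edgeR, adjusted p = 0.000597) and 0.95 in the second (edgeR, adjusted p = 0.0109), and only the first passed. That of HFD from RD was -1.40 and -1.36, and passed in both (edgeR, adjusted p = 0.00953 and 0.00426). The interaction of the HFD-O304 vs RD difference with set was 0.99 on the log2 scale (edgeR, unadjusted p = 0.00584, adjusted p = 0.854). Over all genes, 0 interactions passed in any of the 3 comparisons by edgeR, and 1862, 1516 and 1314 had an unadjusted p under 0.05.

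Mc5r encodes a melanocortin receptor, which couples to Gs and answers to peptides cut from proopiomelanocortin. Normalized counts were 45.9 to 216 (median 64.9) in RD, 152 to 356 (median 306) in HFD and 8.01 to 50.3 (median 15.7) in HFD-O304 libraries. HFD and HFD-O304 libraries stood apart, whereas RD replicate 2 at 216 reached into the HFD range and RD replicate 4 at 45.9 into the HFD-O304 range. HFD islets were 2.98-fold above RD, at a log2 fold change of 1.57 (standard error 0.31, edgeR, adjusted p = 0.00159). Without RD replicates 1 and 2 and HFD replicate 7 it was 2.24. These libraries were left out for lying nearest to another group. They held the highest RD values of Mc5r, at 1.74 and 3.27 TPM, and the lowest HFD value, at 2.21 TPM. The wider difference thus follows from their choice. HFD-O304 islets were 4.40-fold below RD, at -2.14 (standard error 0.37, edgeR, adjusted p = 0.000720), and 13.1-fold below HFD, at -3.71 (standard error 0.36, edgeR, adjusted p = 2.83e-08). Within replicates 1 to 4 alone, the differences from RD were 1.502 and -1.90 and did not pass (edgeR, adjusted p = 0.0196 and 0.0374). Within replicates 5 to 7 they were 1.73 and -2.69 and passed (edgeR, adjusted p = 0.00263 and 0.000329). HFD-O304 and HFD islets differed by -3.40 in the first set and by -4.42 in the second, and this passed in both (edgeR, adjusted p = 2.16e-05 and 4.38e-07).

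**Figure D3:**
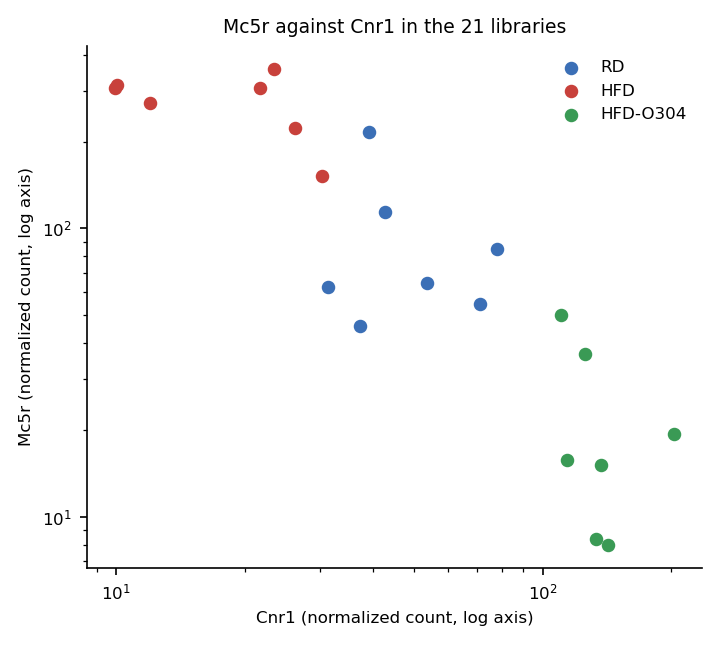
Normalized counts of Mc5r against Cnr1 in each of the 21 libraries, both on log axes, coloured by group. HFD libraries lie at 152 to 356 for Mc5r and 9.92 to 30.4 for Cnr1, HFD-O304 libraries at 8.01 to 50.3 and 110 to 203, and RD libraries at 45.9 to 216 and 31.4 to 78.3.

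The ratio of Mc5r to Cnr1 normalized counts, taken in each library, had a median of 1.23 in RD (0.769 to 5.51), 15.2 in HFD (5.00 to 31.3) and 0.111 in HFD-O304 islets (0.0563 to 0.455). RD replicate 2, for which the HFD mean was the nearest of the 3 group means, had the highest RD ratio, above the lowest HFD ratio. No HFD-O304 ratio reached those of the other groups. The ratio compares counts and not levels per length.

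The remaining receptors coupled to Gi/o, Adra2a and Npy1r, passed in no comparison of the main fit. With library set as a covariate, Npy1r passed in HFD-O304 vs HFD islets, at an adjusted p of 0.00465 by edgeR. Adra2a was at 4064 to 5703 normalized counts in RD, 4465 to 6690 under HFD and 4155 to 5984 in HFD-O304 libraries, with all groups overlapping. Its log2 fold changes were 0.14 (-0.06 to 0.33), -0.02 (-0.22 to 0.17) and -0.16 (-0.36 to 0.03) in HFD vs RD, HFD-O304 vs RD and HFD-O304 vs HFD islets. Npy1r was at 23.3 to 41.6 normalized counts in RD, 24.3 to 64.1 under HFD and 11.6 to 39.7 in HFD-O304 libraries, from 10 to 64 reads per library. Its log2 fold change was -0.81 in HFD-O304 vs HFD islets (-1.29 to -0.33, edgeR, adjusted p = 0.0193), 0.31 in HFD vs RD (-0.16 to 0.77) and -0.50 in HFD-O304 vs RD (-0.99 to -0.02, edgeR, adjusted p = 0.357). With standard errors of 0.24 to 0.25, a difference of the size seen for Ffar1 was not detectable for Npy1r. Its coefficients of variation were 36.2% and 38.7% in HFD and HFD-O304 libraries, against 15.9% and 21.9% from counting alone.

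**Figure D4:**
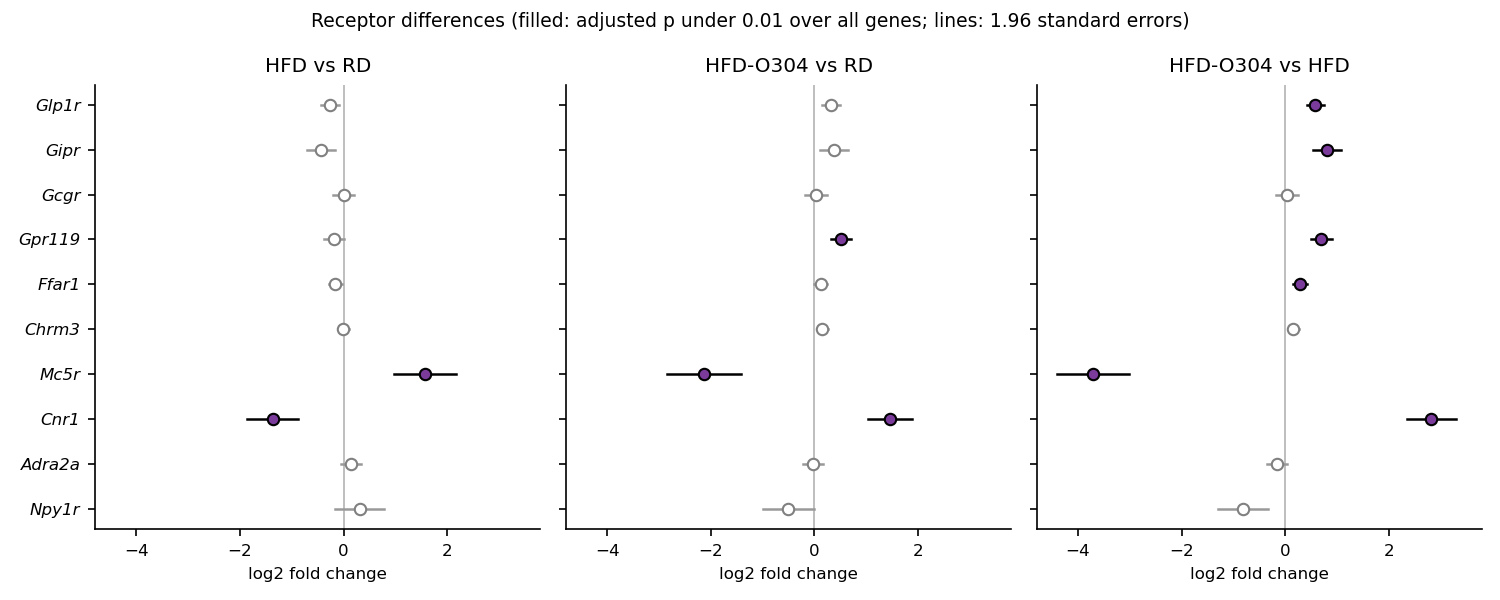
Log2 fold change of each receptor in the 3 comparisons, with lines of 1.96 standard errors on each side and filled points where the edgeR adjusted p over all genes is under 0.01. Filled points number 2, 3 and 6, and those of Mc5r and Cnr1 lie farthest from 0, on opposite sides.

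The genes through which these receptors act were examined next, as lists written down with earlier results of these data known. Of 27 genes for Gs, adenylyl cyclases, protein kinase A and phosphodiesterases, 0 rose and 1 fell in HFD vs RD islets, 2 rose and 0 fell for HFD-O304 vs RD, and 4 rose and 2 fell in HFD-O304 vs HFD. Over all genes 3.54%, 1.31% and 11.9% passed, so that the single gene of HFD vs RD was near the share over all genes. For this and the following lists, the shares over all genes include sparse genes. They were larger among genes with a mean of at least 50 counts, so list counts above them are not read as enrichment. The median log2 fold changes were -0.04, 0.08 and 0.08, against -0.0044, 0.0078 and 0.027 over all genes. Pde1c, a phosphodiesterase that degrades cAMP and is switched on by calcium, passed in all 3, with 580 ± 55.3 normalized counts in RD, 377 ± 55.003 under HFD and 906 ± 130 in HFD-O304 libraries (SD, n = 7). Its log2 fold changes were -0.63, 0.64 and 1.27. Adcy1, an adenylyl cyclase driven by calcium, was at 43.3 ± 11.1, 61.3 ± 15.9 and 92.9 ± 18.1 and rose by 1.11 in HFD-O304 vs RD islets. In HFD-O304 vs HFD islets Crtc2, a coactivator of CREB, rose by 0.37, and Crem, a transcription factor related to CREB, and the phosphodiesterase Pde4d fell by 0.58 and 0.44.

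Of 15 genes for Gq, phospholipase C and calcium release, 0 rose and 3 fell in HFD vs RD, 1 rose and 1 fell for HFD-O304 vs RD, and 5 rose and 1 fell in HFD-O304 vs HFD islets, where 3.54%, 1.31% and 11.9% of all genes passed. The median log2 fold changes were -0.17, 0.05 and 0.08, beside -0.0044, 0.0078 and 0.027 for all genes. Itpr1, a calcium channel of the endoplasmic reticulum opened by inositol trisphosphate, had 4115 ± 561, 2481 ± 503 and 4893 ± 442 normalized counts in RD, HFD and HFD-O304 islets. It fell by 0.74 in HFD vs RD and rose by 0.99 in HFD-O304 vs HFD. Prkcb, a protein kinase C, had 1811 ± 156, 1262 ± 183 and 2301 ± 148 and passed in all 3 comparisons, at -0.53, 0.35 and 0.87. Gna14, a G protein alpha subunit of the Gq class, went the other way, with 72.4 ± 17.1, 106.5 ± 12.8 and 36.8 ± 7.10 and log2 fold changes of -0.97 for HFD-O304 vs RD and -1.52 for HFD-O304 vs HFD.

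Of 26 genes for Gi/o proteins, their beta and gamma effectors, and the RGS proteins, receptor kinases and arrestins that end signalling, 1 rose and 4 fell in HFD vs RD, 0 rose and 2 fell for HFD-O304 vs RD, and 7 rose and 3 fell in HFD-O304 vs HFD islets. The shares of all genes passing were 3.54%, 1.31% and 11.9%. Medians were -0.05, 0.03 and 0.08, and those of all genes -0.0044, 0.0078 and 0.027. Grk5, a kinase that marks active receptors for arrestin, had 2456 ± 267, 1727 ± 360 and 3059 ± 282 normalized counts and moved by -0.51 in HFD vs RD and 0.83 for HFD-O304 vs HFD. Gnai1, an alpha subunit that inhibits adenylyl cyclase, had 565 ± 47.0, 416 ± 63.2 and 723 ± 71.6 and moved by -0.45 and 0.80. Gnb4, a beta subunit, stood against both, at 652 ± 47.5, 818 ± 38.4 and 529 ± 34.2, and passed in all 3 comparisons at 0.32, -0.30 and -0.62. The arrestin Arrb1 was lower in HFD-O304 vs RD islets, at -0.41, and for HFD-O304 vs HFD, at -0.37. Rgs9, which shortens Gi/o signals, was at -0.38 in HFD-O304 vs HFD.

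**Figure D5:**
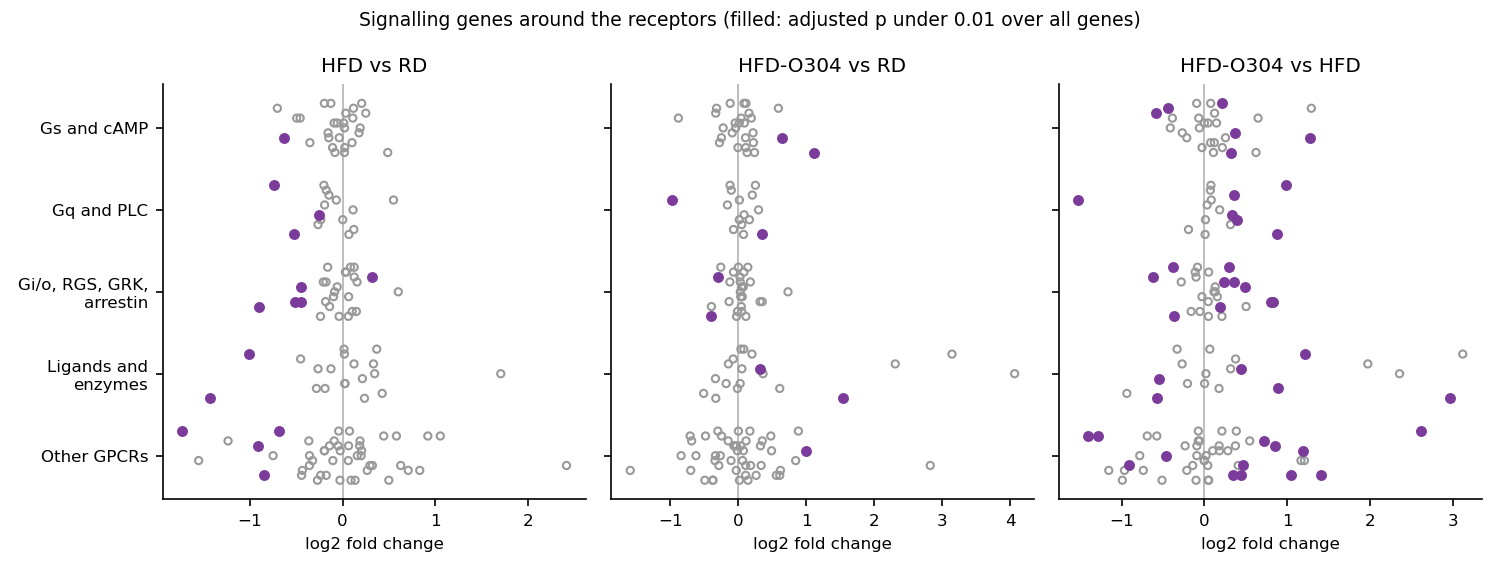
Log2 fold changes of the tested genes of 5 lists around the receptors in the 3 comparisons, 1 point per gene, filled where the edgeR adjusted p over all genes is under 0.01. Filled points are most frequent in HFD-O304 vs HFD islets, and the other receptors include 9 higher and 4 lower there.

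Ligands and the enzymes that make or remove them were listed as 22 genes, of which 21 were matched and 19 tested. In HFD vs RD islets 0 rose and 2 fell, in HFD-O304 vs RD 2 rose and 0 fell, and in HFD-O304 vs HFD 4 rose and 2 fell, against 3.54%, 1.31% and 11.9% of all genes in either direction. The medians were 0.03, 0.05 and 0.18, and -0.0044, 0.0078 and 0.027 over all genes. Npy, the ligand of Npy1r, had 342 ± 100.9, 127 ± 33.1 and 988 ± 281 normalized counts, and its log2 fold changes were -1.43, 1.53 and 2.96. Pyy, a peptide that acts on the same receptors, rose by 0.89 in HFD-O304 vs HFD islets (edgeR, adjusted p = 3.91e-05). Gcg, source of glucagon, had 851484 ± 75386, 424428 ± 119308 and 978571 ± 103709, with -1.01 in HFD vs RD and 1.21 for HFD-O304 vs HFD. It is also the leading gene of the alpha cell list. Dpp4, which degrades GLP-1 and GIP, was at 1830 ± 98.2, 1684 ± 112.3 and 2283 ± 127. It rose by 0.32 in HFD-O304 vs RD and by 0.44 for HFD-O304 vs HFD. Ache, which breaks down acetylcholine, and Napepld, which makes lipid amides, were lower in HFD-O304 vs HFD islets, at -0.57 and -0.55. Pomc, precursor of the melanocortins, was at 84.6 ± 19.1, 108.9 ± 27.5 and 86.3 ± 26.0 and passed in no comparison. Neither did Mrap2, an accessory protein of melanocortin receptors, at 57.9 ± 7.69, 41.7 ± 17.5 and 54.5 ± 4.69.

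Of 55 other islet receptors of this superfamily 47 were tested, and 0 rose and 4 fell in HFD vs RD, 1 rose and 0 fell for HFD-O304 vs RD, and 9 rose and 4 fell in HFD-O304 vs HFD islets, where 3.54%, 1.31% and 11.9% of all genes passed, so that the 1 receptor of HFD-O304 vs RD was near the share over all genes. The medians were -0.03, 0.0016 and 0.02, and -0.0044, 0.0078 and 0.027 over all genes. Crhr1, the receptor of corticotropin-releasing hormone, had 53.7 ± 18.97, 16.2 ± 7.89 and 98.6 ± 15.98 normalized counts, at -1.73 in HFD vs RD and 2.61 for HFD-O304 vs HFD. Ghsr, the ghrelin receptor and a marker of delta cells, had 138 ± 29.4, 72.8 ± 32.4 and 133 ± 18.3. It fell by 0.92 in HFD vs RD and rose by 0.85 for HFD-O304 vs HFD. The adenosine receptor Adora2b rose by 0.996 for HFD-O304 vs RD and by 1.19 for HFD-O304 vs HFD. The vasopressin receptor Avpr1b fell by 0.85 in HFD vs RD and rose by 1.41 in HFD-O304 vs HFD islets. Vipr2, a receptor of vasoactive intestinal peptide, and Ffar2, a receptor of short-chain fatty acids, fell by 0.91 and 0.47 in HFD-O304 vs HFD. Cnr2, the other cannabinoid receptor, was at 15.4 ± 5.04, 19.2 ± 3.74 and 17.7 ± 4.22 and passed in no comparison.

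Genes whose log2 CPM followed a receptor most closely over the 21 libraries, out of 13216, were taken as a description, since all libraries share the group differences. For Cnr1 these were Trpm5, a cation channel, Cdh7 and Sntg1, with Pearson's r of 0.952, 0.951 and 0.949. For Mc5r they were Gabra4, Gm34225 and Gm2115, at 0.967, 0.966 and 0.963. Glp1r was followed by Itpkb, Tshz1 and Lancl3 at 0.966, 0.958 and 0.957, and genes close to Ffar1 included Itpkb and Glp1r itself at 0.908 and 0.907. For Gipr they were Carmil3, Mapk15 and Baiap3, at 0.944, 0.943 and 0.935, and for Gpr119 they were Rab37, Dcaf12l1 and Net1, at 0.949, 0.936 and 0.936. Itpkb, an inositol trisphosphate kinase, thus stood near both Glp1r and Ffar1.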

How the data were processed

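RNA-seq was analysed from 21 islet libraries, 7 each of RD, HFD and HFD-O304 mice. The authors aligned paired-end reads of 50 nt to GRCm38 with STAR (Ensembl 96 in the methods) and deposited raw counts, the read pairs that STAR assigned to each gene, which leave out pairs that match several places or genes. The count of the strand that held 28.8 to 36.3 times the other was used. ChIP-seq was not analysed here. The 10 receptors and all lists were chosen with earlier results of these data known. Groups came from the titles, since the labels give HFD-O304 replicate 1 another diet tag, except for HFD replicate 3, whose title is abbreviated and which was grouped by its diet tag. The methods give n = 7 pools of 5 mice for each condition, and p-values measure the spread between these libraries.

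Genes with a sum of at least 10 counts were fitted together in edgeR 4.0.16 (TMM, factors 0.907 to 1.07, quasi-likelihood test, no covariates, R 4.3.3), and passed at a Benjamini-Hochberg adjusted p under 0.01 over 27229 genes, all tests two-sided. Intervals are 1.96 standard errors. Normalized counts were obtained by dividing by size factors from DESeq2 1.42.0. TPM used the union of exons in GENCODE, in which all 55536 identifiers were found. The fit was tested on simulated data. Replicates differed by more than sampling noise, with a chi-square per gene of at least 8.05. Depth was 31746115 to 41559322 read pairs on genes in RD, 27618749 to 44041180 in HFD and 13809266 to 48922569 in HFD-O304 libraries, and Cnr1, Mc5r and Npy1r had the fewest reads. Signalling genes are named if they passed, at most 2 in each direction per list and comparison with the largest change and a mean of at least 50 normalized counts. Likeness was measured on log2 CPM with a prior count of 2, and the 3 highest genes are given. Gcg beside Gcgr, Pyy, Pomc, Mrap2 and Cnr2 were named after their values were seen. Alternatives covered the test, scaling, filter, strand, groups fitted, a block for replicate number, library set, threshold and each library left out, and 2 sets of libraries left out were added after the data were seen. Figures used matplotlib 3.10.9 under Python 3.11.15, and tables pandas 2.3.3.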

Additional observations from a re-analysis of the deposited data

Results flagged for a closer look

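Of 30 groups of receptor values, 4 held a library set apart from the other 6 by a gap above Dixon's 95% critical value, which chance gives for about 1 in 20 groups. Cnr1 in HFD-O304 replicate 4 was at 203 normalized counts, with the others at 110 to 142. Mc5r in RD replicate 2 was at 216, with the others at 45.9 to 114.2, and of the 3 group means over 13216 genes that of HFD was the nearest to this library. Gcgr in HFD replicate 1 was at 606, with the others at 916 to 1118. Adra2a in HFD-O304 replicate 3 was at 5984, with the others at 4155 to 4797. Leaving out each of these libraries in turn, the calls of these 4 receptors stood as reported, while the sign of Gcgr, near 0, changed without HFD replicate 1. That of Adra2a in HFD-O304 vs RD, also near 0, changed to 0.0356 without RD replicate 2.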

How the results depend on the processing

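With each library left out in turn, 2 to 2 receptors passed in HFD vs RD, 3 to 4 for HFD-O304 vs RD and 6 to 7 for HFD-O304 vs HFD islets. Glp1r was added in HFD-O304 vs RD without HFD replicate 1 (adjusted p = 0.00709), and Npy1r in HFD-O304 vs HFD without HFD replicate 7 or without HFD-O304 replicate 4 (adjusted p = 0.00761 and 0.00366). Within replicates 1 to 4 the count in HFD vs RD was 1, since Mc5r no longer passed. In HFD-O304 vs RD it was 2 in each set, Cnr1 and Gpr119 in replicates 1 to 4 and Mc5r and Glp1r in replicates 5 to 7. In HFD-O304 vs HFD it was 5 in replicates 1 to 4, without Ffar1, and 6 in replicates 5 to 7. The number of all genes passing moved more, from 963, 356 and 3230 in the 3 comparisons to 1758, 727 and 4045 by DESeq2, and to 2148, 785 and 5150 at an adjusted p under 0.05. It was 627 in HFD vs RD with only these groups fitted, 1611 there and 543 in HFD-O304 vs RD with library set as a covariate, 563, 85 and 2001 within replicates 1 to 4, and 307, 228 and 1456 within replicates 5 to 7. Fits on fewer libraries have less power by construction.

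Deviations of same-numbered libraries correlated from -0.532 to 0.688 over the 3 comparisons, with means of 0.202, 0.293 and 0.139. Since some were negative, replicate numbers were not treated as pairs. Whether same-numbered libraries share some structure was not tested. With the replicate block, 2, 4 and 7 receptors passed, with Glp1r added for HFD-O304 vs RD and Npy1r for HFD-O304 vs HFD, and 1577, 543 and 3763 of all genes. DESeq2 also added Npy1r (adjusted p = 0.00577), as did edgeR with library set as a covariate (adjusted p = 0.00465). Without RD replicates 1 and 2 and HFD replicate 7, 1501 genes passed in HFD vs RD, and without HFD-O304 replicates 1 and 2, 185 passed in HFD-O304 vs RD, with Chrm3 added in HFD-O304 vs HFD (adjusted p = 0.00813). Both were chosen after seeing the data.

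Reversals of sign touched only differences that did not pass, the largest of them 0.31 for Npy1r in HFD vs RD. Gcgr in HFD vs RD became 0.000809 by DESeq2, 0.00143 with its size factors, 0.00456 with no filter, 0.000650 at a mean of at least 50 counts, 0.00503 with unstranded counts, 0.00363 with these groups only, 0.0836 within replicates 5 to 7 and 0.00481 without HFD-O304 replicates 1 and 2, and -0.0317 to 0.0948 with a library left out. Chrm3 in HFD vs RD became 0.000378 with no filter, 0.0124 within replicates 1 to 4 and 0.000405 without HFD-O304 replicates 1 and 2, and -0.0225 to 0.0135 with a library left out. Npy1r in HFD vs RD was -0.0896 within replicates 5 to 7. Gcgr was -0.0805 for HFD-O304 vs RD and -0.00931 for HFD-O304 vs HFD within replicates 1 to 4, and -0.00866 to 0.0916 and -0.0481 to 0.0928 with a library left out. Adra2a in HFD-O304 vs RD was 0.0968 without RD replicates 1 and 2 and HFD replicate 7, and -0.0917 to 0.0356 with a library left out. The cause was not tested. Npy1r, with a mean under 50 counts, has no value under that filter.

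With the length of the longest transcript in place of the union of exons, RD levels became 70.0 TPM for Ffar1, 212 for Glp1r, 18.5 for Gcgr, 46.3 for Adra2a, 9.68 for Gpr119 and 15.3 for Chrm3. Counting error is largest for Cnr1, Mc5r and Npy1r, which had as few as 7, 9 and 10 reads in a library.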

Other observations

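Reads on the strand opposite to a gene made up 2.68% to 3.36% of the stranded reads per library over all genes. For Adra2a they were 6.45% ± 0.496 in RD, 5.78% ± 0.788 under HFD and 6.58% ± 0.327 in HFD-O304 libraries (SD, n = 7), above the share over all genes in all 21 libraries. The annotation places no gene on the opposite strand there. Among the other 9 receptors the highest group mean was 1.57%, for Gcgr in HFD islets.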
